A study of Mus musculus with 20 samples.

Results

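The collagen and laminin genes of the mouse hippocampus were followed across cell classes, anesthesia and genotype. A gene was included when its symbol in the deposited gene list was a collagen chain (Col, a number, a and a number) or a laminin chain (Lama, Lamb or Lamc and a number). This gave 55 genes of 32285 listed, 44 collagens and 11 laminins. Single nuclei RNA-sequencing (snRNAseq), which counts the RNA molecules of each nucleus by unique molecular identifiers (UMIs), had been run on the hippocampi of 20 male mice aged 4.5 to 5.5 months, 1 library per mouse. The mice were APP/PS1 (APPSwe/PS1ΔE9), a transgenic model of familial Alzheimer's disease called fAD, or their wild-type littermates (WT). They were awake, under general anesthesia with isoflurane (GA, 5% reduced to 1.5%), or anesthetized with ketamine (150 mg/kg) and xylazine (12 mg/kg), and anesthesia lasted 3 h. The labels place 9 mice in the awake state (6 WT and 3 fAD), 7 under isoflurane (3 WT and 4 fAD) and 4 under ketamine (2 of each genotype), with group names such as WT-Awake and fAD-GA. The transgenes overproduce mutant APP and PS1 proteins on top of the mouse genes. The mice were also young, so the model covers early amyloid accumulation and not tangles or neuron loss.

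Collagens are built from chains that wind into a triple helix, which requires glycine at regular positions (the Gly-X-Y repeat). Fibrillar collagens form fibers, type IV collagens form the sheet of basement membranes, FACIT collagens decorate fibers, and transmembrane collagens sit in the plasma membrane. Laminins are heterotrimers of an alpha, a beta and a gamma chain that, with type IV collagen, make up the basement membrane around brain vessels and beneath the meninges. In the brain these proteins are known from meningeal and perivascular fibroblasts, from the vessel wall, from astrocyte endfeet and, for a few collagens such as Col25a1, from neurons.

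The repeat that defines the family is shown for 4 members on which the results below turn, Col1a2 (a fibrillar chain high in fibroblasts), Col4a1 (basement membrane), Col25a1 and Col19a1 (high in neurons). Each line is 90 bases of RefSeq coding sequence, 10 triplets of codons, with the GGN glycine codons in capitals. The codons shown are 97 to 126 of Col1a2, 1233 to 1262 of Col4a1, 529 to 558 of Col25a1 and 833 to 862 of Col19a1.
Col1a2: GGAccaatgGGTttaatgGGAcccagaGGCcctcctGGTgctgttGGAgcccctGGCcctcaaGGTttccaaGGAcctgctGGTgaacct
Col4a1: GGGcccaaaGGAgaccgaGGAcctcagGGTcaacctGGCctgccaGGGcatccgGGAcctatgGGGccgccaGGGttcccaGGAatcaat
Col25a1: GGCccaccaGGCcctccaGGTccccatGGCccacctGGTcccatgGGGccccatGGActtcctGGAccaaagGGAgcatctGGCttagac
Col19a1: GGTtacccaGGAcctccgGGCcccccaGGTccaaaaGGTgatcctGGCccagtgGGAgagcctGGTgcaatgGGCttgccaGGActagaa
All 44 collagens carried such a run, and the longest uninterrupted run in a chain was 23 to 344 triplets long (median 58). Among the 11 laminins, 4 had a run, of at most 3 triplets.

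The files held 160777 nuclei, 4743 to 10877 per mouse, with 9243992 to 25394891 UMIs per mouse and a median of 1235 to 3169 UMIs per nucleus. Members took 303641 UMIs, or 0.0654 to 0.216% of a mouse's total. Any pair of libraries shared 5 to 35 barcodes, at most 0.407% of the smaller library. Mice 1 to 4 stood apart by mitochondrial UMIs, 0.939 to 1.78% against 0.0353 to 0.336% in the others. Col1a2 stood apart in another set of 8 mice, described with the conditions. The genotype labels were checked with Prnp, whose promoter drives the transgenes in this line and whose transcript can be counted with them. It was at 42.2 to 196 counts per 1000000 UMIs (CPM) in the 11 mice labelled WT and at 63.6 to 433 in the 9 labelled fAD. Mice 11, 17 and 20, labelled fAD, were at 63.6, 74.5 and 99.7, and mouse 14, labelled WT, was at 196. Of the 9 mice labelled fAD, 4 lay above the highest mouse labelled WT and 5 did not. Prnp thus leaves the labels of these 4 mice in doubt. Groups are given below as labelled, and the called condition results were also fitted without the 4. Nuclei were assigned to classes by markers that include no collagen or laminin, after 10844 doublets (6.74%) had been removed. The gate gave 1428 fibroblasts, 206 mural cells (pericytes and smooth muscle), 469 endothelial cells, 89734 neurons and 41501 glia. All 11 fibroblast markers were highest in the fibroblast class, with a summed 8536 CPM against 831 in mural and 206 in endothelial nuclei. For the mural, endothelial and neuron classes, 9 of 10, 12 of 12 and 7 of 8 markers were highest in their own class. The same markers set the gate, so these ranks follow from it and are not an independent check.

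Per nucleus RNA, fibroblasts held the most of this family, although neurons, being numerous, gave most of the molecules. Members were 0.793% of the UMIs of fibroblasts, 0.327% of mural cells, 0.192% of endothelial cells, 0.118% of glia and 0.0651% of neurons. Of all member UMIs, 60.7% came from neurons, 18.5% from glia, 4.74% from fibroblasts, 0.592% from endothelial and 0.212% from mural nuclei. The rest lay in nuclei that the gate left unassigned (9.43%), called ambiguous (3.98%) or called choroid plexus (1.86%). By mean CPM, 32 of the 55 members were highest in fibroblasts, 8 in mural cells, 7 in endothelial cells, 6 in glia and 2 in neurons. The share of all genes highest in each class is not given here, so these counts are a description only. Several members were placed on few molecules. Endothelial Col10a1 had 1 UMI, in mouse 19, and endothelial Col6a6 had 4, all in mouse 10. Mural Col7a1 had 0 to 3 UMIs per mouse. The fibroblast set held 8 of 11 fibrillar chains, 6 of 9 FACIT chains and 3 of 6 type VI chains. Some of these places rested on 1 mouse. Without its highest mouse, the fibroblast mean fell below the next class for Col2a1 (1.59 against 2.31 CPM) and Col24a1 (0.85 against 1.50 CPM). The same held for Col20a1 (15.8 against 18.9 CPM), Col14a1 (9.58 against 13.6 CPM) and Col8a1 (128 against 133 CPM). By the means over all mice, 3 of the 5 laminin alpha chains were highest in endothelial cells, but only Lama5 clearly so (103 against 14.1 CPM in the next class). Lama4 was at 185 against 175 CPM, and Lama3 at 29.7 against 26.2 CPM, on 0 to 5 endothelial UMIs per mouse. Counts ranged from 150 UMIs for Col6a5 and 157 for Col6a6 to 54889 for Col25a1 and 32166 for Lama2. CPM is not corrected for gene length, so levels are compared below for 1 gene across classes and not between genes.

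**Figure D1:**
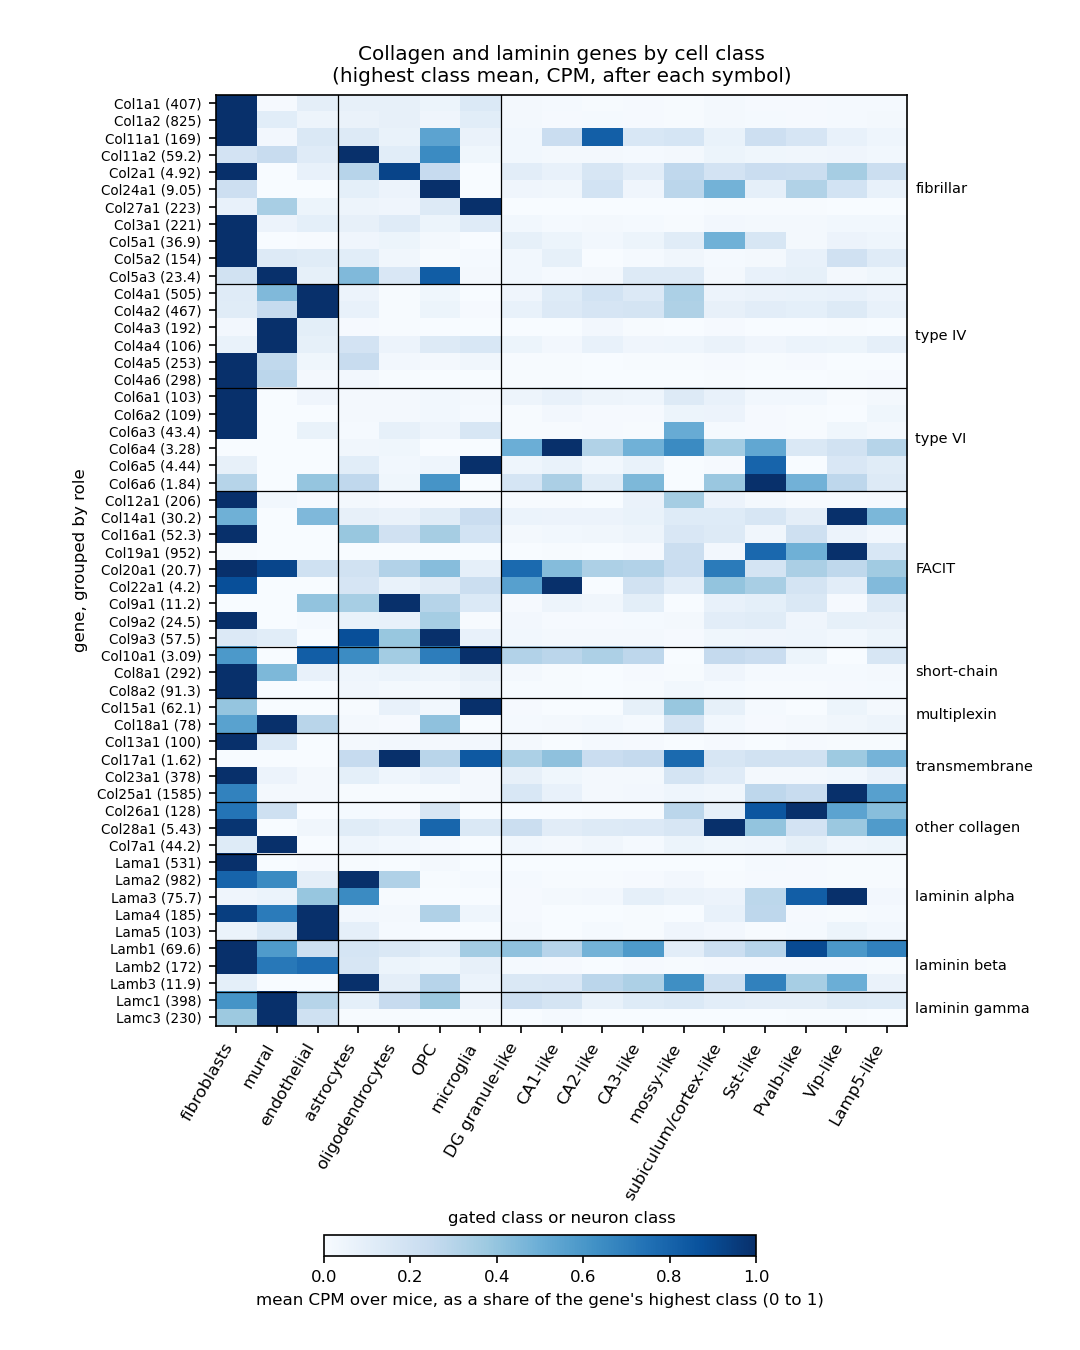
Level of 54 members (vertical axis) in each of 17 cell classes (horizontal axis), as a share of the gene's own highest class; the mean CPM of that class stands beside the gene. More members are darkest in the fibroblast column than in any other column, and Col25a1 and Col19a1 are darkest in the Vip-like column.

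Fibroblasts of the vessel wall and meninges were set apart from endothelial and mural cells by fibrillar chains and by the type IV pair Col4a5 and Col4a6. Lama1 and the transmembrane collagens Col25a1 and Col23a1 did so as well. Lama2 set them apart from endothelial cells, but was at 784 ± 303 CPM in fibroblasts and 638 ± 415 CPM in mural cells. In the 19 mice with at least 10 fibroblast nuclei, Col1a2, a chain of fiber-forming type I collagen, averaged 825 ± 1071 CPM (SD; 245 to 4990). It averaged 40.5 ± 55.1 CPM in the 13 mice with endothelial sums and 90.2 ± 94.3 CPM in the 7 with mural sums. Col1a1, its partner chain, was at 407 ± 893 CPM in fibroblasts (0 to 4055, median 173) and had 2 UMIs in all mural nuclei. Mouse 28 had the highest level of both chains, and without it Col1a1 averaged 205 ± 135 CPM (n = 18). Over all 19 mice the SD of both chains exceeded their means. Lama1, an alpha chain of the meningeal basement membrane, was at 531 ± 388 CPM in fibroblasts (69.4 to 1573) and 5.32 ± 15.8 CPM in endothelial cells. It had 0 UMIs in mural cells, where 3 counts over the class would be 17.2 CPM, so the pooled fibroblast level of 429 CPM was at least 25.0-fold higher. Col25a1, a membrane collagen whose shed ectodomain is found in amyloid plaques, was at 1078 ± 1034 CPM in fibroblasts (155 to 4609), 29.8 ± 72.3 CPM in endothelial and 25.4 ± 67.3 CPM in mural cells.

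Against endothelial cells, 23 of the 34 members tested were higher in fibroblasts, where 20.1% of all 9720 genes were, and 3 were lower, where 10.2% of all genes were (edgeR quasi-likelihood test, adjusted p below 0.05). The median difference was 3.07 on the log2 scale over the members and 0.35 over all genes. The filter on low counts had been lowered to a minimum of 1 for these sums. Col6a2 and Col16a1, for example, had 152 and 85 UMIs in fibroblasts and 0 in endothelial and mural cells. Such members could pass the filter through fibroblasts alone, so their direction followed from it. With the default minimum of 10, fewer members were tested and called, as given in the last section. The higher members were led by Col25a1 (5.30 ± 0.41 SE, adjusted p = 3.96e-36), Lama1 (4.89 ± 0.41) and Col23a1 (5.59 ± 0.48). Lama2, the muscle and brain laminin alpha chain, followed at 3.44 ± 0.33, then Col4a6 at 4.39 ± 0.42 and Col1a2 at 3.74 ± 0.38. The 3 lower members were the pair that forms the ordinary vascular basement membrane network, Col4a1 (-2.29 ± 0.31, adjusted p = 2.73e-12) and Col4a2 (-2.32 ± 0.31), and Lama5 (-3.63 ± 0.54), an endothelial laminin alpha chain. Against mural cells, 20 members were higher in fibroblasts (13.9% of all genes) and 2 lower (2.74%), with a median of 2.88 over the members and 0.68 over all genes. After Lama1, the higher members were led by Col25a1 (4.94 ± 0.60, edgeR adjusted p = 3.53e-14), Col23a1 (4.62 ± 0.68), Col4a6 (3.29 ± 0.55) and Col1a2 (2.88 ± 0.50), and Col1a1 was called as well. Col4a3 (-3.16 ± 0.70, adjusted p = 0.000117) and Col4a4 (-2.74 ± 0.76, adjusted p = 0.004) were lower.

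Endothelial and mural cells differed from each other in fewer members. In endothelial cells Col4a1 averaged 505 ± 357 CPM (157 to 1288) and Col4a2 467 ± 465.6 CPM (0 to 1861), against 225 ± 272 and 116 ± 69.8 CPM in mural cells and 60.1 ± 40.3 and 54.0 ± 39.2 CPM in fibroblasts. Lama5 was at 103 ± 80.3 CPM in endothelial and 14.1 ± 24.3 CPM in mural cells. The mural class had more Lama2, at 638 ± 415 CPM against 93.3 ± 95.2 CPM. Lamc1, the common gamma chain, was at 398 ± 174 CPM in mural and 119 ± 102 CPM in endothelial cells, and Lamc3 was at 229.5 ± 140.0 and 46.1 ± 42.2 CPM. Of 34 members, 5 were higher in mural cells (2.45% of all genes): Lama2 (2.21 ± 0.43, edgeR adjusted p = 1.45e-05), Lamc3 (1.59 ± 0.50), Lamc1 (1.29 ± 0.42), Col4a4 (2.53 ± 0.84) and Col4a3 (2.08 ± 0.70). Lama5 (-3.07 ± 0.85, adjusted p = 0.00554) and Col4a2 (-1.68 ± 0.48, adjusted p = 0.00788) were lower, where 7.39% of all genes were. Lama4, the alpha chain shared by vessels, was at 185 ± 138, 132 ± 54.6 and 175 ± 92.5 CPM in endothelial, mural and fibroblast nuclei and was called in none of the 3 comparisons. The mural class also carried 1856 summed CPM of the 12 endothelial markers and the endothelial class 3108 summed CPM of the 10 mural markers, and their part in these differences was not tested.

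**Figure D2:**
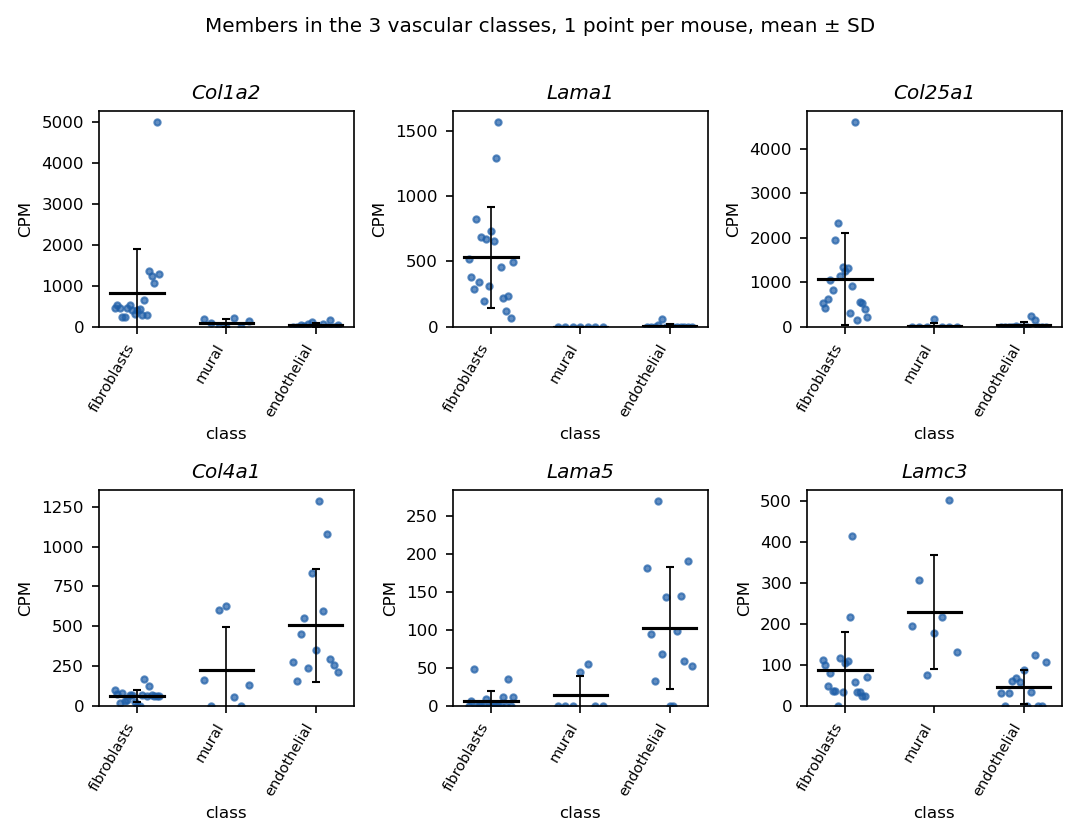
CPM of 6 members in fibroblasts, mural and endothelial nuclei, 1 point per mouse with at least 10 nuclei of the class, with the mean and SD as bars. Col1a2, Lama1 and Col25a1 stand high in fibroblasts, Col4a1 and Lama5 in endothelial cells and Lamc3 in mural cells.

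Genes that act with the family were counted in the same comparison, in which 20.1% of all genes were higher and 10.2% lower in fibroblasts. Between fibroblasts and endothelial cells, 3 of 8 basement membrane partners were higher in fibroblasts, Fbln1 (5.04), Npnt (2.86) and Nid1 (1.36, a linker between laminin and collagen IV). As many were lower, Agrn (-2.17) and Hspg2 (-0.89), which are heparan sulfate proteoglycans, and Sparc (-1.32), which binds collagen. Of 19 tested genes for collagen processing, 6 were higher, with Adamts2 (5.41) and Pcolce (3.23), which act on procollagen ends, and 1 was lower, Colgalt2 (-2.66). Receptors were divided, with 5 higher, among them the collagen receptor Ddr2 (3.22), and 6 lower, among them the laminin receptor subunit Itga6 (-5.53), of 12. Of 7 turnover genes, 4 were higher, with Timp2 (3.40) and Mmp14 (3.28), and 1 was lower, Adamts1 (-1.94).

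Neurons and glia differed in most of their leading members, though Lamc1 was among them in both. In neurons of the 20 mice, Col25a1 was at 199.98 ± 32.3 CPM and Col19a1, a FACIT-type collagen made by interneurons, at 62.6 ± 8.09 CPM. Lamc1 was at 62.1 ± 8.55, Col4a2 at 53.0 ± 7.05, Col4a1 at 42.0 ± 8.25 and Col11a1 at 28.0 ± 11.0 CPM. Glia had Lama2 at 627 ± 121 CPM, Lamc1 at 67.8 ± 19.5 CPM, Col9a3 at 39.9 ± 14.3, Col11a2 at 37.4 ± 12.2 and Col4a5 at 34.6 ± 8.53 CPM. Of 39 members tested, 15 were higher in neurons, where 41.6% of all 15282 genes were, and 20 were lower, where 43.1% were, so the shares were near those of all genes. The sizes were large: Col19a1 (5.08 ± 0.14, edgeR adjusted p = 5.22e-22) and Col25a1 (4.76 ± 0.13) were higher in neurons, followed by Col26a1 (2.11 ± 0.16), Col4a2 (1.53 ± 0.08), Col4a1 (1.48 ± 0.11) and Col20a1 (1.41 ± 0.10). Lama2 (-5.86 ± 0.12, adjusted p = 7.94e-24), Col27a1 (-4.52 ± 0.16), Col4a5 (-4.31 ± 0.20), Col11a2 (-4.28 ± 0.15), Col9a1 (-3.07 ± 0.16) and Col1a2 (-1.68 ± 0.09) were lower. The levels of Col1a2 in both classes came mostly from 8 mice that stood apart, described with the conditions. Among the related lists, neurons were higher in 1 and lower in 3 of 6 partners, 5 and 10 of 24 processing genes (Adamts3 at 3.20, and the collagen chaperone Serpinh1 at -3.74), 5 and 7 of 14 receptors, and 4 and 5 of 10 turnover genes.

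Among glia, laminin alpha chains and several collagens differed in level between the classes. Lama2 was at 982 ± 129.7 CPM in astrocytes and 313 ± 89.96 CPM in oligodendrocytes, against 6.98 ± 8.26 CPM in oligodendrocyte precursors (OPC) and 14.4 ± 19.5 CPM in microglia. Lama3, a laminin alpha chain best known from epithelia, was at 49.1 ± 21.1 CPM in astrocytes and had 5 UMIs in oligodendrocytes and 1 each in OPC and microglia. Lama4 was at 58.8 ± 17.8 CPM in OPC and at or below 8.47 CPM in the other 3 glia classes. Each of these chains was thus high in 1 or 2 of the 4 glia classes. Microglia (19 mice) had Col27a1, a fibrillar chain, at 223 ± 83.4 CPM and Col15a1, a basement membrane multiplexin, at 62.1 ± 38.1 CPM.

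Against the mean of the other 3 glia classes, 20 of 39 members were higher in astrocytes (39.4% of all 15382 genes). They included Lama2 (5.35 ± 0.10, edgeR adjusted p = 3.39e-99), Lama3 (6.41 ± 0.24), Col4a5 (3.97 ± 0.20), Col11a2 (3.01 ± 0.15), Col4a1 (2.90 ± 0.21) and Col4a2 (2.54 ± 0.16). In OPC 16 were higher (25.4%), with Col18a1, the source of endostatin (4.85 ± 0.27), Lama4 (3.63 ± 0.20, adjusted p = 5.67e-37), Col11a1 (3.21 ± 0.25), Lamc1 (1.82 ± 0.12) and Col9a3 (1.71 ± 0.17). Col26a1 was called there as well, at 20.6 ± 14.1 CPM against 0 UMIs in microglia. In oligodendrocytes 6 were higher (33.1%), Lama2 (3.09 ± 0.12), Col9a1 (2.32 ± 0.26), Lamc1 (1.27 ± 0.11), Col6a3 (0.92 ± 0.28), Col1a2 (0.54 ± 0.14) and Col3a1 (0.50 ± 0.18), of which the last 2 are genes that stood apart in 8 mice, as described with the conditions, and did not pass the filter on low counts without them. In microglia 5 were higher (17.7%), Col15a1 (4.63 ± 0.27), Col27a1 (3.54 ± 0.14, adjusted p = 2.07e-42), Col25a1 (1.55 ± 0.28), Col6a3 (1.39 ± 0.45) and Col14a1 (1.27 ± 0.45).

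The neurons were clustered without the members, and clusters named by markers gave 10 classes, from 33647 dentate gyrus (DG) granule-like nuclei to 395 mossy-like nuclei, while 23108 nuclei in 20 of 45 clusters stayed unnamed. The 4 interneuron-like classes had the highest mean levels of Col25a1 and Col26a1, and 3 of them of Col19a1. Col25a1 was at 1585 ± 391 CPM in Vip-like neurons (1033 to 2393), 887 ± 258 in Lamp5-like, 439 ± 125 in Sst-like and 376 ± 139 in Pvalb-like neurons. The lowest Vip-like mouse lay above every mouse of the Sst-like and Pvalb-like classes. Among excitatory classes Col25a1 was at 247 ± 47.2 CPM in DG granule-like, 112 ± 23.7 in CA1-like and 35.2 ± 15.1 in CA2-like neurons, and the levels of Sst-like and Pvalb-like neurons lay within 1 SD of each other. Col19a1 was at 952 ± 215 CPM in Vip-like, 745 ± 192 in Sst-like and 468 ± 121 in Pvalb-like neurons, then 213 ± 78.3 in mossy-like and 147 ± 46.2 in Lamp5-like neurons, and at 1.35 to 8.79 CPM on average in the DG granule-like and CA classes. Thus 1 excitatory class, the mossy-like cells of the dentate hilus, stood among the interneurons for this gene. Col26a1, a collagen first known from testis and ovary, was at 128 ± 36.3 CPM in Pvalb-like and 109 ± 34.7 CPM in Sst-like neurons.

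Laminin chains divided the interneurons further. Lama3 was at 75.7 ± 27.3 CPM in Vip-like and 62.3 ± 24.5 CPM in Pvalb-like neurons against 21.0 ± 12.3 CPM in Sst-like and 2.01 ± 3.64 CPM in Lamp5-like neurons. Lama4 was at 51.1 ± 19.5 CPM in Sst-like and 14.1 ± 7.66 CPM in subiculum/cortex-like neurons, at most 2.24 CPM on average in 7 other classes, and at 0 UMIs in mossy-like neurons. Among the pyramidal classes, Col11a1, a fibrillar chain of cartilage, was at 139 ± 55.6 CPM in CA2-like neurons against 38.7 ± 18.3 in CA1-like and 26.3 ± 27.0 in CA3-like neurons. Col12a1, a FACIT chain of tendon, was at 73.1 ± 38.5 CPM in mossy-like, 13.6 ± 5.6 in CA3-like and 11.9 ± 5.87 in subiculum/cortex-like neurons, and at or below 3.40 CPM elsewhere.

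Each class was tested against the mean of the others over 29 members and 13345 genes. The number higher was 10 in Vip-like (21.3% of all genes), 9 in Sst-like (20.6%), 8 in Pvalb-like (23.2%) and 9 in Lamp5-like neurons (17.5%). It was 9 in DG granule-like (45.2%), 7 in CA1-like (34.0%), 5 in CA2-like (20.8%), 9 in CA3-like (32.7%), 11 in mossy-like (10.3%) and 13 in subiculum/cortex-like neurons (30.6%). In Vip-like neurons the leading members were Col19a1 (4.67 ± 0.08, edgeR adjusted p = 9.68e-123), Lama3 (3.96 ± 0.14), Col25a1 (3.47 ± 0.07), Col14a1 (3.12 ± 0.19), Col26a1 (3.11 ± 0.14) and Col5a2 (2.93 ± 0.21). Col19a1 and Col26a1 also led in Sst-like (4.26 ± 0.08 and 3.81 ± 0.12) and Pvalb-like neurons (3.52 ± 0.09 and 4.06 ± 0.12), with Lama4 (adjusted p = 3.99e-79), Lama1 (2.53 ± 0.32), Lama3 (1.99 ± 0.20) and Col25a1 (1.41 ± 0.09) in the former. Pvalb-like neurons were also higher in Lama3 (3.63 ± 0.15), Col16a1 (2.19 ± 0.25), Lamb1 (1.32 ± 0.11) and Col25a1 (1.16 ± 0.09), and Lamp5-like neurons in Col26a1 (2.62 ± 0.17), Col25a1 (2.44 ± 0.08), Col5a2 (2.03 ± 0.29), Col14a1 (1.75 ± 0.28), Col19a1 (1.52 ± 0.14) and Lamb1 (0.77 ± 0.13).

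Members higher in 1 or more excitatory classes included Col12a1, Col15a1, Col11a1, Col4a1 and Col4a2, and also Col19a1, Col25a1, Col5a2 and Lamb1, which were called for interneuron-like classes as well. Mossy-like neurons were higher in Col12a1 (4.98 ± 0.26, edgeR adjusted p = 1.36e-52), Col15a1 (4.27 ± 0.38), Col18a1 (3.08 ± 0.40), Col19a1 (2.17 ± 0.17) and the pair Col4a1 (1.91 ± 0.13) and Col4a2 (1.43 ± 0.11). CA3-like neurons shared Col12a1 (2.75 ± 0.17), Col15a1 (2.29 ± 0.22), Col4a1 (0.81 ± 0.07) and Col4a2 (0.79 ± 0.06) with them, and had Lamb1 (0.89 ± 0.08). CA2-like neurons were led by Col11a1 (3.12 ± 0.17, adjusted p = 2.87e-42), followed by Col4a1 (1.27 ± 0.10), Col4a4 (0.79 ± 0.28), Col4a2 (0.66 ± 0.09) and Lamb1 (0.47 ± 0.13). In CA1-like neurons the differences were smaller: Col5a2 (1.65 ± 0.18), Col6a1 (1.40 ± 0.22), Col11a1 (1.25 ± 0.15), Lamc1 (0.64 ± 0.06), Col4a1 (0.53 ± 0.07) and Col4a2 (0.25 ± 0.06). DG granule-like neurons had Col20a1 (1.33 ± 0.10), Col23a1 (1.06 ± 0.11), Lamc1 (0.99 ± 0.05, adjusted p = 2.29e-50), Col1a2 (0.85 ± 0.12), Lama2 (0.66 ± 0.10) and Col25a1 (0.65 ± 0.08). In DG granule-like neurons Col1a2 was at 11.1 to 115 CPM in mice 10 to 12 and 25 to 29, the 8 mice that stood apart, and at 0 to 1.51 CPM in the other 12, and without the 8 mice it did not pass the filter on low counts. The subiculum/cortex-like class was higher in Col5a1 (2.99 ± 0.15, adjusted p = 9.19e-59), Col12a1 (2.32 ± 0.18), Col8a1 (2.24 ± 0.22) and Col23a1 (1.70 ± 0.12), and Lama4 was called there too.

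**Figure D3:**
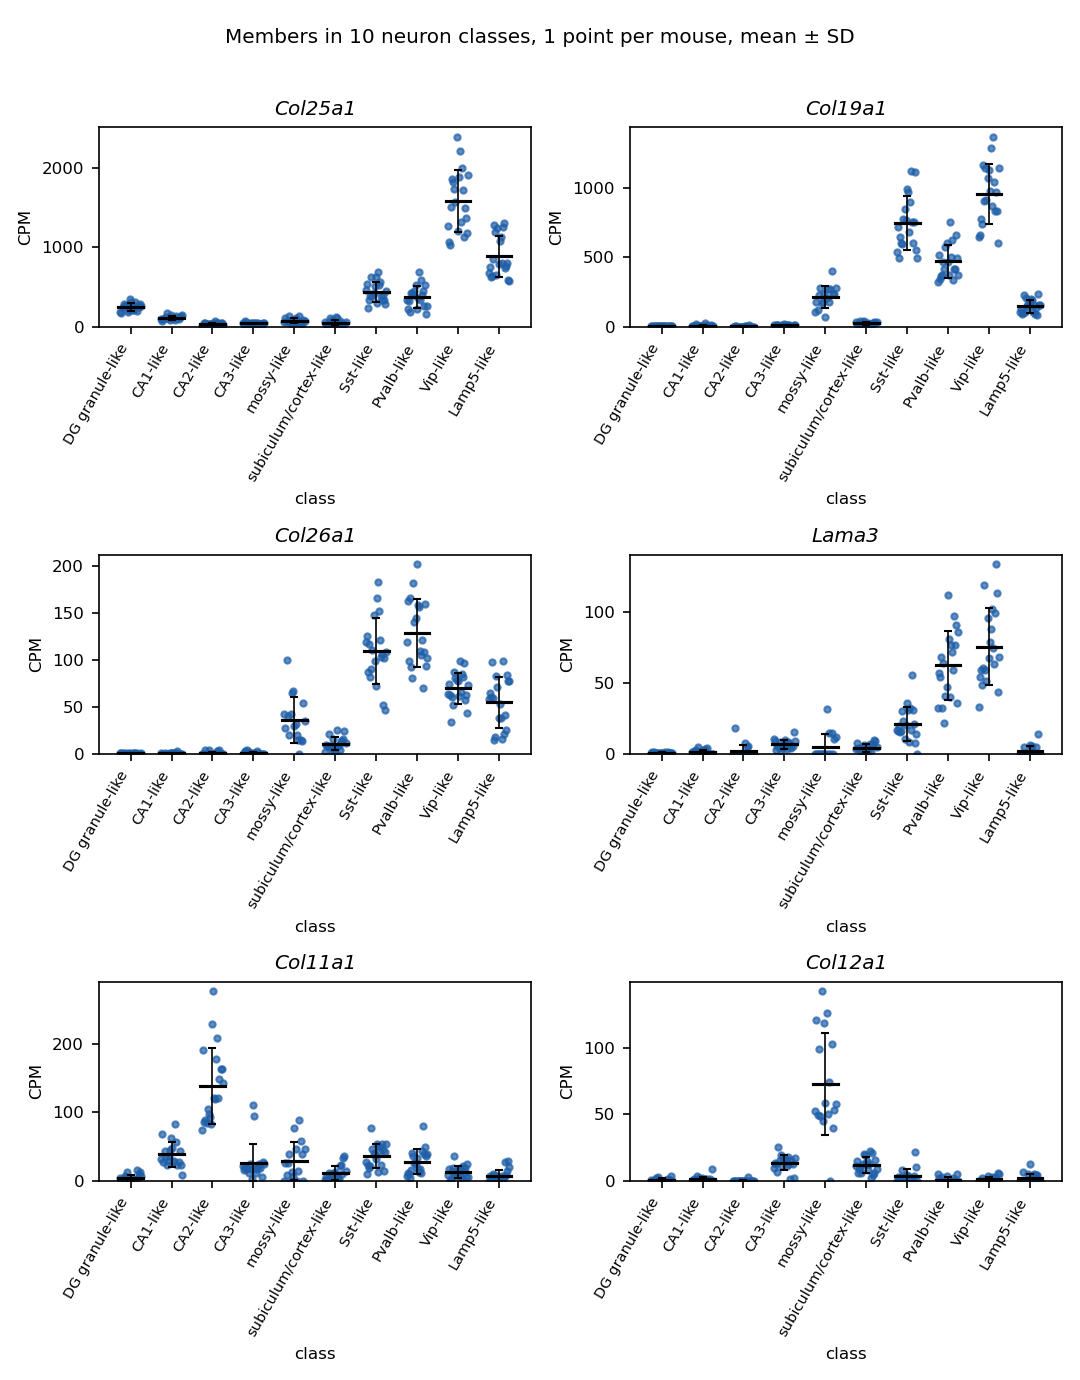
CPM of Col25a1, Col19a1, Col26a1, Lama3, Col11a1 and Col12a1 in 10 neuron classes, 1 point per mouse with at least 10 nuclei of the class, with the mean and SD as bars. The first 4 genes peak in interneuron-like classes, Col11a1 in CA2-like and Col12a1 in mossy-like neurons.

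Collagen IV and VI genes lie in pairs, and the neighbours were compared over the 17 classes as a description, since the classes share mice and libraries. The starts of Col4a1 and Col4a2 on chromosome 8 were 21 bases apart on opposite strands. Their log2 levels followed each other with r = 0.98 and rho = 0.98, and both were highest in endothelial cells and, among neuron classes, in mossy-like cells. For Col4a3 and Col4a4 on chromosome 1, 72 bases apart, r was 0.74 and rho 0.44, and both were highest in mural cells among the 5 classes. The X-linked Col4a5 and Col4a6 (1309 bases apart) gave r = 0.89 and rho = 0.50. Col6a1 and Col6a2 (chromosome 10, 102538 bases apart) gave r = 0.83 and rho = 0.38. The window around the Col4a2 start (GRCm38.p6, RefSeq, chr8:11312555-11312854, plus strand, 250 bases before to 50 after the start) shares its last 78 bases with the Col4a1 window, and is shown since this pair moved together most closely. Capitals mark GC boxes (GGGCGG) and CCAAT boxes (CCAAT) on either strand. The window of Col4a4 (chr1:82586800-82587099, minus strand) is shown because Col4a4 differed under anesthesia, and none of the letters searched were in it.
Col4a2: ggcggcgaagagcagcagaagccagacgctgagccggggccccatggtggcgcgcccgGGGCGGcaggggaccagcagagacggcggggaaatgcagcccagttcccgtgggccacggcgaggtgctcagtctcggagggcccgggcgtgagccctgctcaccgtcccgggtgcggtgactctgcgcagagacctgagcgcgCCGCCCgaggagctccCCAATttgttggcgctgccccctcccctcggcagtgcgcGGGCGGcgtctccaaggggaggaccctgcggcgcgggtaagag
Col4a4: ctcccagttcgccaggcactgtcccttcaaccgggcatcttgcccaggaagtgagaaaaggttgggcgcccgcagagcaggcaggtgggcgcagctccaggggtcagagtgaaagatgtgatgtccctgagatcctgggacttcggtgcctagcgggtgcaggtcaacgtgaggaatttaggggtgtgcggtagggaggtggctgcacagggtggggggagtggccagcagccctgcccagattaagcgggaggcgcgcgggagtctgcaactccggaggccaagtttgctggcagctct
Promoter windows were found for 40 of the 55 members, 44 windows in all. GGGCGG was in 26 of them and in 35.7% of all 32851 windows of that length, CCAAT in 14 and in 37.4%, and the TATA box (TATAAA) in 5 and in 13.6%.

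Before conditions are compared, 1 feature of the libraries has to be given, because it moves with ketamine. In glia, which are not known as a source of type I collagen, Col1a2 was at 40.3 to 375 CPM in mice 10, 11, 12 and 25 to 29 and at 0.471 to 4.63 CPM in the other 12 mice. In neurons it was at 8.50 to 76.7 CPM in the 8 mice and 0.0839 to 1.17 CPM in the 12. Col1a1 (16.0 to 242 against 1.72 to 7.94 CPM in glia) and Col3a1 (19.0 to 107 against 0 to 1.43 CPM) followed it. In glia 6 members had all 8 mice above the other 12, these 3 and Lamb1 (10.9 to 30.8 against 2.86 to 8.54 CPM), Col11a1 (29.8 to 68.8 against 7.44 to 21.2 CPM) and Col6a2 (2.08 to 12.7 against 0 to 1.14 CPM). In neurons 4 did, the 3 type I and III chains and Lamb2 (2.63 to 9.30 against 0.132 to 1.19 CPM). The 8 mice were set apart by Col1a2 in glia, so its own split there was fixed by that choice. The share of all genes that split in this way is not given here, so the counts are a description only. The 8 mice include all 4 ketamine mice, and mouse 29, WT-Awake, is the only awake mouse numbered in the same run (25 to 29). The 11 fibroblast markers of the gate, summed over glia, were at 195 to 391 CPM in the 8 mice and 129 to 177 CPM in the 12. In neurons they were at 53.7 to 120 and 34.9 to 81.8 CPM. The fibroblast gene Dcn in glia did not split, at 2.00 to 31.3 CPM in the 8 mice and 0.520 to 46.2 CPM in the 12. Nuclei that the gate left unassigned were 7.52 to 19.2% of the 8 libraries and 1.14 to 8.16% of the 12, with Col1a2 in them at 81.1 to 2730 and 3.39 to 58.2 CPM. The part of RNA from fibroblasts or from unassigned nuclei in the levels of other classes was not tested.

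**Figure D4:**
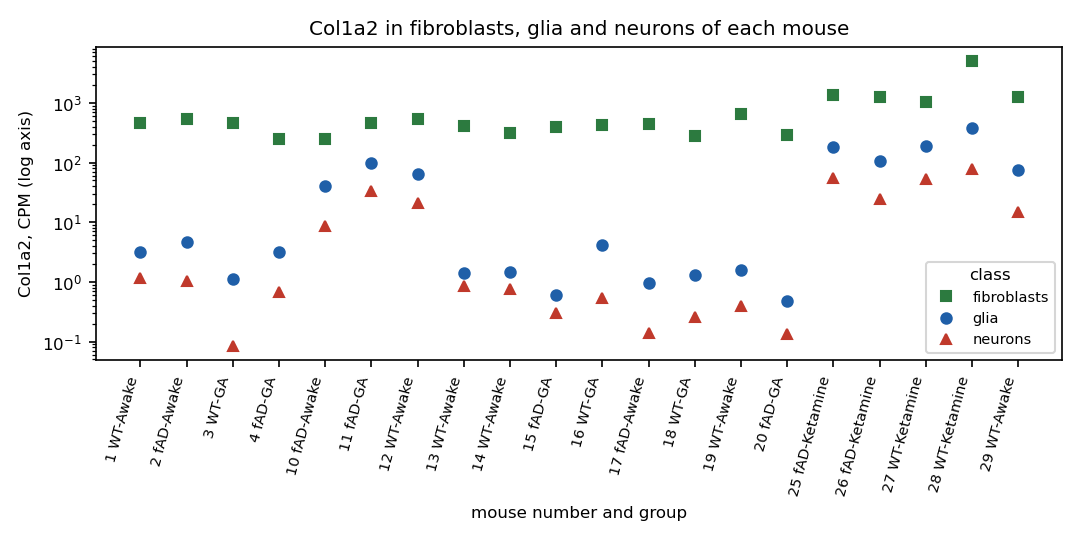
Col1a2 CPM (log axis) in fibroblasts, glia and neurons of each of the 20 mice, by mouse number. In glia and neurons, mice 10 to 12 and 25 to 29 all stand above the other 12.

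Isoflurane and ketamine were each compared with the same 9 awake mice, so the comparisons are not independent, and p-values measure the spread between mice. With sums of nuclei, fewer RNA molecules per nucleus of a class and fewer nuclei of a subtype within it cannot be told apart. Where the run of mouse numbers is fitted as a block, mouse 29 is the only awake mouse in the run of the ketamine mice. A ketamine call lost in that fit thus cannot tell the drug from the run. The share of vascular nuclei (fibroblast, mural and endothelial) was 0.832 ± 0.531% under isoflurane (n = 7) against 1.52 ± 1.12% awake (n = 9; exact permutation test, two-sided p = 0.150), and 2.18 ± 1.68% under ketamine (n = 4; exact p = 0.422).

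In fibroblasts, the fibrillar chains Col1a2 and Col11a1 and the laminin chains Lamb1 and Lamb2 were called higher under ketamine, of which Col1a2 alone stayed called without mouse 28 and none with the run of mouse numbers fitted as a block. All 4 genes are among those that set the 8 mice apart in glia or neurons, and the 8 include every ketamine mouse, so the drug and that feature cannot be fully told apart. In fibroblasts Col1a2 was at 248 to 534 CPM in mice 10 to 12 of the 8, within the 245 to 662 CPM of the mice outside the 8. Awake mouse 29, which is also of the 8 and in the number run of the ketamine mice, was at 1279 CPM. No member was called under isoflurane. Col1a2 was at 248, 464 and 1279 CPM (lowest, median and highest of 9 awake mice), 245, 354 and 468 CPM in 6 isoflurane mice, and 1054, 1298 and 4990 CPM in 4 ketamine mice. The groups overlapped through 1 awake mouse, number 29, which had the 1279. Col11a1 was at 19.9, 82.8 and 300 CPM awake and 117, 485 and 820.1 CPM under ketamine, and 2 of the 4 ketamine mice lay above every awake mouse. Lamb1, the common beta chain, was at 0, 46.0 and 134 CPM awake and 58.6, 135 and 310.1 CPM under ketamine. Lamb2 was at 0, 124 and 327 CPM awake and 164, 208 and 755 CPM under ketamine. Both beta chains overlapped between the groups. In the other direction, Col4a6 was at 66.8, 383 and 911 CPM awake against 23.2, 121 and 129 CPM, and Col26a1 at 0, 169 and 229.5 CPM against 9.26, 34.5 and 85.7 CPM, again with overlap.

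Of 45 members tested in fibroblasts, 6 changed under ketamine, where 3.26% of all 13932 genes did, and the median was 0.33 over the members and -0.23 over all genes. These were Col1a2 (2.39 ± 0.37, edgeR adjusted p = 2.11e-05), Lamb1 (1.85 ± 0.45, adjusted p = 0.00676), Col11a1 (2.88 ± 0.62, adjusted p = 0.00958), Lamb2 (1.58 ± 0.42, adjusted p = 0.0159), and, lower, Col4a6 (-1.69 ± 0.44, adjusted p = 0.0106) and Col26a1 (-2.03 ± 0.53, adjusted p = 0.0122). Npnt (3.70), Nid2 (2.02) and Fbln1 (1.66) were higher among 8 basement membrane partners, P4ha2 (1.97) among 24 processing genes, Mmp2 (3.12) and Timp3 (1.24) among 11 turnover genes, and none of 13 receptors was called. Each of these 6 related genes lost its call without some single mouse. Without mouse 28 the log2 difference of Col1a2 was 1.43 and it was still called, whereas Lamb1 fell to 0.80 (adjusted p = 0.619), Lamb2 to 0.63 (adjusted p = 0.62) and Col11a1 to 1.73 (adjusted p = 0.0802), and Col4a6 (-1.30, adjusted p = 0.228) and Col26a1 (-1.65, adjusted p = 0.199) also lost their calls. Calls were also lost without mouse 25 for Lamb1, Col11a1, Lamb2, Col4a6 and Col26a1, without mouse 2 for Lamb1, Col4a6 and Col26a1, without mouse 26 for Col4a6, and without mouse 10 or 17 for Lamb2. Without mice 1 to 4, Lamb1, Lamb2, Col4a6 and Col26a1 were not called (adjusted p 0.0506 to 0.108), nor was Col11a1 without the 4 mice of doubtful label (adjusted p = 0.0766). With the number run fitted as a block, the difference of Col1a2 was 0.96, and none of the 6 members or the 6 related genes was called. Mouse 29 is the only awake mouse of that run, so this fit cannot tell the drug from the run. Under isoflurane 0 of 45 were called (0.0144% of all genes) by edgeR and by DESeq2, 2 had an unadjusted p below 0.05, and the smallest was that of Col26a1 (-1.15 ± 0.45, unadjusted p = 0.0113, adjusted p = 0.866).

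In endothelial cells, isoflurane mice had more Col4a2, a chain of the vessel's basement membrane. It was at 0, 197 and 329 CPM (lowest, median and highest) in 6 awake mice and at 574, 609 and 1861 CPM in 5 isoflurane mice. All 5 isoflurane mice lay above the highest awake mouse. These levels rest on few molecules: awake mice had 0 to 10 UMIs of Col4a2, apart from mouse 10 with 94. The isoflurane mice had 13 to 49, and the 1861 CPM was that of mouse 18, on 13 UMIs. The 2 ketamine mice with enough nuclei, both fAD, were at 317 and 410.5 CPM, and ketamine was not tested in this class. Of 22 members tested, Col4a2 was the 1 called (1.85 ± 0.46, edgeR adjusted p = 0.0134), where 0.801% of all 9859 genes were, with 2.03 in WT and 1.66 in fAD mice. Its neighbour Col4a1, at 157, 255 and 593 CPM awake and 448, 832 and 1288 CPM under isoflurane, differed by 1.33 ± 0.46 and was not called (adjusted p = 0.188). The call of Col4a2 was lost when mouse 2, 10 or 18 was left out (highest adjusted p 0.0869), with the run of numbers as a block (1.58, adjusted p = 0.201), without mice 1 to 4 (1.81, adjusted p = 0.106), without the 8 mice above (2.29, adjusted p = 0.482) and without the 4 mice of doubtful label (1.78, adjusted p = 0.0743). The 10 mural markers in these sums were at 871 to 4129 CPM awake and 286 to 3275 CPM under isoflurane. In mural cells of 7 mice, 0 of 21 members were called under isoflurane (0.0% of all 7835 genes) by edgeR and by DESeq2, and 3 had an unadjusted p below 0.05. The smallest was that of Col4a1 (3.31 ± 0.89, unadjusted p = 0.00132, adjusted p = 0.782), at 0 to 162 CPM in 5 awake mice and 603 and 623 CPM in 2 isoflurane mice.

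In neurons, Col4a4, a minor chain of basement membrane collagen, was higher under both anesthetics. It was at 1.67, 2.82 and 3.83 CPM awake, 3.82, 5.75 and 10.3 CPM under isoflurane, and 6.06, 7.89 and 8.86 CPM under ketamine. All 4 ketamine and 6 of 7 isoflurane mice lay above the highest awake mouse. Col20a1, a FACIT chain, was at 7.23, 8.79 and 12.7 CPM awake and 12.5, 15.5 and 20.5 CPM under isoflurane, with 6 of 7 mice above every awake mouse, and at 7.97, 9.21 and 11.1 CPM under ketamine, within the awake range. Lama4 went the other way, at 1.96, 3.56 and 8.69 CPM awake and 0.991, 2.28 and 3.76 CPM under isoflurane, with overlap. Its 4 ketamine mice were at 5.75, 6.63, 10.6 and 13.9 CPM (0.96 ± 0.32, edgeR adjusted p = 0.0582, not called). Lama3 was at 3.00, 5.86 and 6.49 CPM awake and 8.64, 8.90 and 9.75 CPM under ketamine, without overlap.

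Of 54 members tested in neurons (all but Col6a5), 8 were called under isoflurane, where 8.93% of all 18788 genes were, 3 higher and 5 lower. The higher ones were Col4a4 (1.13 ± 0.21, edgeR adjusted p = 0.00301), Col20a1 (0.70 ± 0.13, adjusted p = 0.00331) and Col18a1 (0.86 ± 0.25, adjusted p = 0.0396), and the lower ones Lama4 (-1.20 ± 0.31, adjusted p = 0.0221), Col19a1 (-0.33 ± 0.10, adjusted p = 0.0373), Col9a3 (-1.07 ± 0.32, adjusted p = 0.0426), Col8a1 (-2.13 ± 0.64) and Col26a1 (-0.52 ± 0.16, both adjusted p = 0.0443). Col4a4 and Col20a1 were called with any single mouse left out (adjusted p up to 0.0136 and 0.0121). Col4a4 was not called without mice 1 to 4 (0.94, adjusted p = 0.0513), nor Col20a1 without the 8 mice above (0.65, adjusted p = 0.0608). Lama4 lost its call when mouse 10 or mouse 16 was left out (highest adjusted p 0.103), without mice 1 to 4 (adjusted p = 0.0905) and without the 8 mice (-0.90, adjusted p = 0.152). The other 5 lost theirs in 10 to 16 of the 20 cases in which 1 mouse was left out, with adjusted p up to 0.098 to 0.121, and without mice 1 to 4 (adjusted p 0.093 to 0.251). Without the 8 mice 4 of these 5 were not called (all but Col9a3), nor were 4 without the 4 mice of doubtful label (all but Col8a1), and Col8a1 was not called with the run of numbers as a block (-1.62, adjusted p = 0.149). Col8a1 and Col9a3 were highest in choroid plexus nuclei in these data, and their awake range rested on few mice: Col8a1 was at 26.4 CPM in mouse 2, whose library had 1.52% choroid plexus nuclei, and Col9a3 at 14.5 CPM in mouse 17, which had 0%. The 6 choroid plexus markers in neurons were at 18.7, 57.4 and 707 CPM awake and 31.8, 63.6 and 547 CPM under isoflurane, and their part was not tested.

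Under ketamine 7 of the 54 were called in neurons, a share near the 12.3% of all genes, so the count does not set the members apart. The calls were led by Col4a4 (1.53 ± 0.25, edgeR adjusted p = 0.00148). Then came Col9a3 (-2.16 ± 0.52, adjusted p = 0.0128), Lama3 (0.75 ± 0.18, adjusted p = 0.0139) and Col1a2 (3.50 ± 0.98, adjusted p = 0.027), the last at 0.140, 1.03 and 21.4 CPM awake and 24.7, 53.9 and 76.7 CPM under ketamine, all of whose mice are among the 8 that stood apart. Col4a5 (1.47 ± 0.46) and Col24a1 (1.52 ± 0.48) had adjusted p of 0.0452 and 0.0461 and each lost its call without any of 13 single mice. With the run of numbers as a block, Col4a5 turned to -0.50 (adjusted p = 0.913). Neither was called without mice 1 to 4 (adjusted p = 0.0943 and 0.0546) or without the 4 mice of doubtful label (adjusted p = 0.108 and 0.0805), and Col1a2 was not called without mice 1 to 4 (adjusted p = 0.064). Lama3 and Col9a3 lost theirs without mouse 25 or 27, and Col1a2 without mouse 2, 17, 25, 27 or 28 (adjusted p up to 0.107, 0.0938 and 0.117). With that block, in which awake mouse 29 alone stands beside the ketamine mice, none of the 7 was called, and Col4a4 was at 0.99.

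In glia, Col5a3, a fibrillar chain, and Col23a1, a transmembrane collagen, were higher under both anesthetics, as was Col4a4. Col5a3 was at 2.94, 4.68 and 8.69 CPM awake, 6.68, 12.4 and 19.3 CPM under isoflurane and 7.52, 10.1 and 17.4 CPM under ketamine, with 6 of 7 isoflurane and 2 of 4 ketamine mice above every awake mouse. Col23a1 was at 12.1, 18.2 and 23.1 CPM awake, 17.3, 27.5 and 32.1 CPM under isoflurane and 32.8, 48.3 and 58.8 CPM under ketamine. Its ketamine mice lay above all mice of both other states. Col4a4 was at 4.81, 6.29 and 12.3 CPM awake, 9.58, 15.1 and 24.6 CPM under isoflurane and 12.7, 27.2 and 35.6 CPM under ketamine, and its isoflurane range overlapped the others. Lamb1 was at 2.86, 5.20 and 16.7 CPM awake and 17.5, 24.7 and 30.8 CPM under ketamine. These did not overlap, but Lamb1 split by the 8 mice that stood apart, since their awake mice 10, 12 and 29, at 10.9 to 16.7 CPM, also lay above the other 12. Col6a2 split in the same way.

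Of 39 members tested in glia, 4 were called under isoflurane, where 6.73% of all 14839 genes were, all higher: Col5a3 (1.22 ± 0.21, edgeR adjusted p = 0.00173), Col23a1 (0.64 ± 0.16, adjusted p = 0.0221), Lama5 (1.22 ± 0.34, adjusted p = 0.0366) and Col4a4 (1.03 ± 0.29, adjusted p = 0.0401). Col5a3 was called under all 13 settings tried and with any single mouse left out (adjusted p up to 0.008). Col23a1 lost its call without mouse 4, 16, 17 or 18 (adjusted p up to 0.0634), and Lama5 and Col4a4 lost theirs without any of 7 and 11 single mice (adjusted p up to 0.187 and 0.106). Without mice 1 to 4 Lama5 fell to 0.37 (adjusted p = 0.629) and Col4a4 to 0.70 (adjusted p = 0.344). Col23a1, Lama5 and Col4a4 were not called without the 8 mice (adjusted p = 0.0536, 0.135 and 0.0746) or without the 4 mice of doubtful label (adjusted p = 0.107, 0.0652 and 0.0817). Under ketamine 6 were called (8.64% of all genes), Col23a1 (1.52 ± 0.18, edgeR adjusted p = 8.71e-05), Col4a4 (1.85 ± 0.33, adjusted p = 0.00269), Col5a3 (1.16 ± 0.25, adjusted p = 0.00872), Lamb1 (1.89 ± 0.41, adjusted p = 0.00895), Col6a2 (2.03 ± 0.62, adjusted p = 0.0419) and Col6a3 (1.55 ± 0.48, adjusted p = 0.0468). The median was 0.67 over the members and -0.05 over all genes. Col23a1 was called with any single mouse left out. The call was lost without mouse 27 for Col4a4, 25 or 28 for Col5a3 and 25 or 27 for Lamb1 (adjusted p up to 0.0598, 0.0599 and 0.0732), and without any of 11 of 20 mice for Col6a2 and 7 of 11 for Col6a3. Col6a2 was not called by DESeq2 or without mice 1 to 4 (adjusted p = 0.12), and neither was called without the 4 mice of doubtful label (adjusted p = 0.0778 and 0.0865). With the run of numbers as a block, in which awake mouse 29 alone stands beside the ketamine mice, none was called, and Col23a1 was at 1.99. The 11 fibroblast markers in glia were at 129, 161 and 339 CPM awake, 139, 158 and 287 CPM under isoflurane and 195, 302 and 391 CPM under ketamine. The 6 choroid plexus markers, of cells that also carry Col4a4 and Lama5, were at 19.6, 34.9 and 2128 CPM awake, 21.8, 41.9 and 1480.2 CPM under isoflurane and 19.6, 206 and 636 CPM under ketamine. Their part in the results was not tested.

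**Figure D5:**
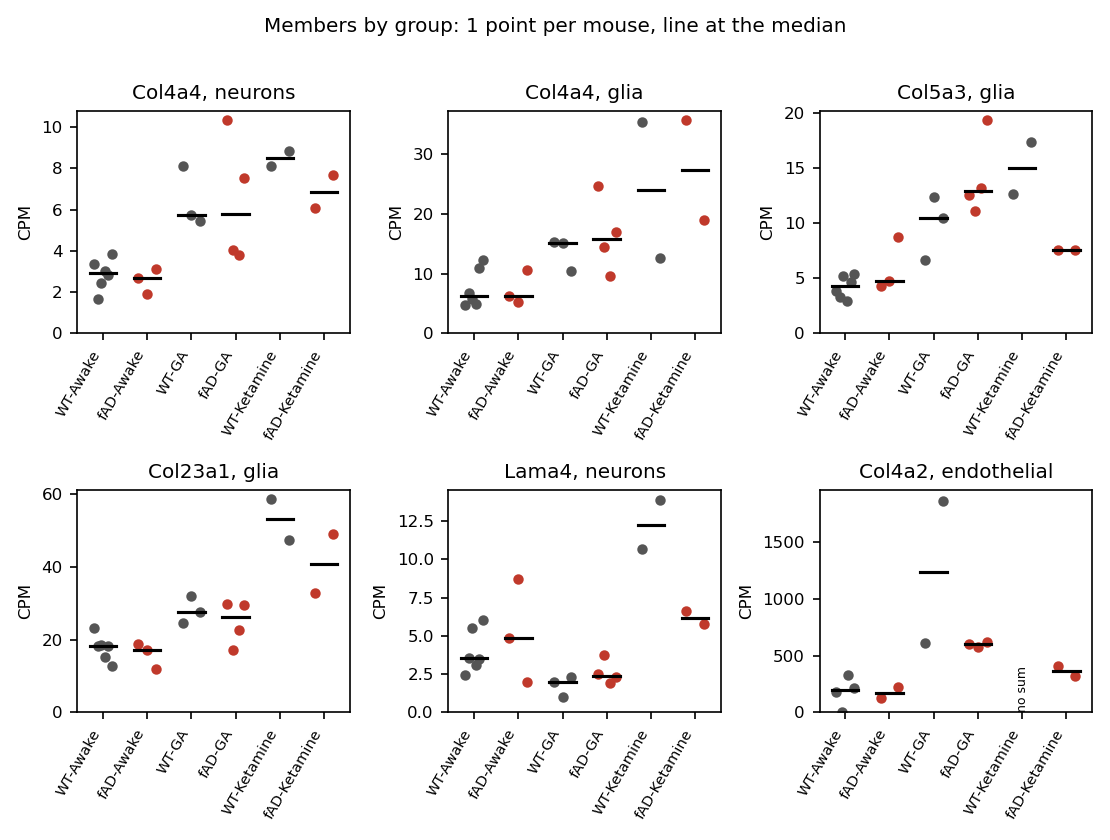
CPM of Col4a4 in neurons and glia, Col5a3 and Col23a1 in glia, Lama4 in neurons and Col4a2 in endothelial cells, 1 point per mouse in the 6 groups of genotype and state, with a line at the group median. Col4a4, Col5a3 and Col23a1 have higher medians in anesthetized than in awake mice of either genotype label, with overlap between single mice, and WT-Ketamine has no endothelial sum.

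The related lists were counted in neurons and glia in the same fits. Under isoflurane 9 of 63 related genes were called in neurons (14.3%, against 8.93% of all genes) and 5 of 56 in glia (8.93%, against 6.73%), and under ketamine 12 of 63 (19%, against 12.3%) and 11 of 56 (19.6%, against 8.64%). With the run of numbers as a block, all 9 and 5 isoflurane calls stood and none of the ketamine calls did, and Mmp24 in neurons and Itga10 in glia turned to -0.04 and -0.52. Awake mouse 29 alone stands beside the ketamine mice in their run, so those losses cannot tell the drug from the run. With any single mouse left out 4 of the 9 and 2 of the 5 isoflurane calls stood, as did 3 of the 12 and 1 of the 11 ketamine calls. Without the 8 mice, 3 of the 9 and 4 of the 5 isoflurane calls stood. Without mice 1 to 4, 3 of the 9 and 3 of the 5 isoflurane and 8 of the 12 and 4 of the 11 ketamine calls did. Without the 4 mice of doubtful label, 5 of the 9, 2 of the 5, 11 of the 12 and 7 of the 11 did. Under isoflurane, neurons had 2 higher and 1 lower of 27 processing genes, P4ha1, a subunit of the enzyme that hydroxylates collagen prolines, at -0.96, Pcolce2 at 0.96 and Loxl1 at 0.98. Of 15 receptors, the integrin subunits Itga2 (1.29), Itga11 (1.07) and Itga1 (0.84), which bind collagen, were higher and Ddr2 (-0.69) was lower. Of 13 turnover genes Mmp9 (0.95) was higher and Mmp17 (-0.36) lower, and 0 of 8 partners were called by edgeR, with none at an unadjusted p below 0.05. Under ketamine, neurons had Nid2 (1.78) and Fbln1 (1.68) higher among the partners, Pcolce (2.59), Pcolce2 and Plod2 (0.72 each) higher and P4ha1 (-1.29) lower among processing genes, Itga2 (1.68) and Itga11 (1.46) higher among receptors, and Mmp2 (3.12), Timp4 (0.84) and Mmp24 (0.36) higher and Adamts1 (-1.22) lower among turnover genes. The 11 fibroblast markers in neurons were at 34.9, 42.3 and 81.8 CPM awake and 53.7, 82.8 and 120 CPM under ketamine, and the part of fibroblast RNA in Mmp2, Pcolce, Fbln1 and Nid2 was not tested. In glia under isoflurane, Nid2 (-1.02) of 7 partners and Adamts2 (-1.35) and P4ha1 (-0.64) of 23 processing genes were lower, and Itga11 (1.45) of 14 receptors and Mmp24 (0.91) of 12 turnover genes were higher. Under ketamine, glia had Npnt (2.28) and Fbln1 (1.05) higher, Pcolce (2.58) and P4ha2 (0.85) higher and P4ha1 (-0.76) and Plod1 (-0.66) lower, and Itga11 (1.84), Itga2 (1.72), Itga10 (1.52), Mmp2 (1.79) and Adamts1 (1.51) higher.

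Genotype, compared over awake and isoflurane mice and without the 4 ketamine mice, gave no called member in any of the 5 classes, by edgeR or by DESeq2. The 4 mice of doubtful label, all awake or under isoflurane, were kept in this comparison as labelled where they had enough nuclei. If any of those labels is wrong, the groups are mixed, so the absence of calls cannot show that genotype made no difference. The CPM ranges given for WT and fAD are of these awake and isoflurane mice. Of all genes tested between fAD and WT, 0.0203% were called in endothelial cells and 0.0% in each of fibroblasts, mural cells, neurons and glia. The number of members with an unadjusted p below 0.05 was 1 in fibroblasts, 0 in mural cells, 4 in endothelial cells, 4 in neurons and 1 in glia. In fibroblasts the smallest was Col25a1, at 219, 911 and 2338 CPM in WT and 424, 1183 and 4609 CPM in fAD mice (0.68 ± 0.33, unadjusted p = 0.0447). In neurons it was Col9a3, at 0.890, 1.60 and 3.77 CPM in WT and 0.739, 2.32 and 14.5 CPM in fAD mice (1.02 ± 0.32, unadjusted p = 0.00493), where mouse 17 alone had the highest value. Col5a3 in glia differed by 0.48 ± 0.21 (unadjusted p = 0.0355) and Lamc1 in mural cells by 1.44 (unadjusted p = 0.0804). In endothelial cells Col8a1 was at 0 in all WT mice and at 0, 26.0 and 189 CPM in fAD mice (unadjusted p = 0.0121). These ranges overlapped in each case.

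The interaction, which asks if the isoflurane difference was unlike in fAD and WT mice, also called 0 members by edgeR and DESeq2. In mural cells it rested on 1 isoflurane mouse of each genotype, so there the lone mice are assumed to vary like the other groups. Of all genes, 0.0101% were called in endothelial cells and 0.0% in each of the other 4 classes. Unadjusted p was below 0.05 for 1 member in fibroblasts, 0 in mural cells, 2 in endothelial cells, 9 in neurons and 0 in glia. The smallest per class were Col25a1 in fibroblasts (2.25, unadjusted p = 0.00143) and in endothelial cells (unadjusted p = 0.0118), Lamc1 in mural cells (2.60), Lama1 in glia (-1.81, unadjusted p = 0.0538) and Col9a3 in neurons (-2.75 ± 0.64, unadjusted p = 0.000412). For Col9a3 in neurons the isoflurane difference was 0.30 in WT and -2.45 in fAD mice, and for Col8a1 it was -0.13 and -4.12. The fAD values rest on awake mice 2, 10 and 17. Col9a3 was at 7.84, 3.90 and 14.5 CPM in them, and Col8a1 at 26.4, 15.1 and 0.839 CPM. Mouse 17 is of doubtful label, and all 4 such mice are in the interaction fit. Neither Col9a3 nor Col8a1 was called for the interaction. With these labels in doubt, the absence of calls cannot show that the isoflurane difference was alike in fAD and WT mice.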

How the data were processed

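Raw UMI counts per gene and nucleus, as deposited by the authors, were used without normalization. Per the study's methods and the submitters' notes, the authors aligned reads to mm10 (introns included) with Cell Ranger 5.0.0. The methods also name CellBender and removal of nuclei with few genes, whereas the headers of the count files name Cell Ranger only, so a correction for ambient RNA in these counts is not known. The kit is given as version 3 in the methods and in another version in the labels. Labels speak of perfusion and the methods of decapitation.

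Doublets were scored per mouse by simulated doublets (20 components) and removed, and no nucleus had fewer than 229 genes. A nucleus was assigned to the class whose markers took the largest share of its UMIs, relative to a reference share of that class. At least 3 markers of the class had to be detected. A nucleus was called ambiguous where a runner-up class exceeded 0.5 of the leading value. Neurons were clustered on 2000 variable genes without the members (30 components, 20 neighbours, Leiden resolution 3; scanpy 1.11.5, Python 3.11.15), and clusters were named by at least 3 markers. Clusters with over 50% of nuclei from 1 mouse stayed unnamed. Resolution and this last rule were chosen after clusters had been seen. Counts were summed per mouse and class (at least 10 nuclei) and fitted across all genes by the quasi-likelihood method of edgeR 4.0.16 under R 4.3.3, after TMM scaling and filterByExpr, with p-values adjusted by Benjamini-Hochberg and called below 0.05. Class comparisons had the mouse as a block, and conditions 1 mean per group of genotype and state. The minimum count of filterByExpr was 10 for neuron and glia sums, and was lowered to 1 (vascular and glia classes) and 3 (neuron classes) after few members passed the default of 10. In class comparisons a member could thus pass through the class where it was high, and its direction there then followed from the filter. The newer quasi-likelihood fit of edgeR 4 was taken after a first run with the legacy fit. CPM per mouse is UMIs of a gene per 1000000 UMIs of that mouse's class, and depth limits the precision of vascular sums most. Tests were tried on simulated counts.

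The members and all lists were chosen with earlier results of these data known. Genes named are the members highest by CPM in each class (up to 6), up to 6 called members per class comparison and direction, every called member per condition (or the smallest p), the neighbouring pairs and Prnp. The alternatives were DESeq2 1.42.0, RLE size factors, other filters and gates, other sets of mice, a block for the run of mouse numbers (1 to 4, 10 to 13, 14 to 17, 18 to 20 and 25 to 29; the methods state processing batches but not which mice they held, and mouse 29 is the only mouse not under ketamine in the last run), an additive model, and each mouse left out. The legacy fit, the minimum count of 10, sums of at least 5 nuclei, and leaving out the 8 mice with Col1a2 over 30 CPM in glia or the 4 with doubtful labels, and the alternatives for related genes, were chosen after seeing the data. Sequences are RefSeq's (GRCm38.p6). A further check of the genotype and the values of 1 member are not reported here, though that member stays in the counts.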

Additional observations from a re-analysis of the deposited data

Results flagged for a closer look

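Choroid plexus nuclei, the epithelium that makes cerebrospinal fluid, were not among the 5 classes compared, and 10 members were higher in them than in any of those classes. In the 8 mice with at least 10 such nuclei, Col8a1, a short-chain network collagen, was at a pooled 1155 CPM (599 to 1867 per mouse; the highest of the 5 classes was 565), and Col9a3, a FACIT chain, at 1055 CPM (440 to 2064; highest other 42.2). The 565 was the fibroblast level of Col8a1, where mouse 28 was at 3254 CPM and the other 18 mice averaged 128 CPM. The basement membrane chains Col4a3 and Col4a4 were at 353 CPM (highest other 178) and 261 CPM (109), Lama5 at 119 CPM (105), Lamb1 at 124 CPM (91.6) and Col8a2 at 172 CPM (84.2). Col14a1 at 12.3 CPM, Col17a1 at 8.49 CPM and Col10a1 at 6.17 CPM had mice at 0.

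Single mice lay far from the rest of their group for 5 of 47 combinations checked. Chance gives about 1 in 20 for normally spread values. For low and skewed counts that rate is not known here, so the 5 are a description only. Col1a2 in fibroblasts was at 1279 CPM in mouse 29 (WT-Awake), with 310.2 to 662 CPM in the other 5. Col1a2 in neurons was at 33.3 CPM in mouse 11 (fAD-GA), with 0.134 to 0.689 CPM in the others. Both mice are among the 8 with Col1a2 over 30 CPM in glia. Col4a5 in neurons was at 3.39 CPM in mouse 29 (others 0.528 to 1.34), Col20a1 in neurons at 13.0 CPM in mouse 20 (fAD-GA; others 15.4 to 15.9) and Col6a3 in glia at 1.38 CPM in mouse 11 (others 2.29 to 2.40).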

How the results depend on the processing

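The groups compared share no replicate numbers, so no mice were paired by label. Tissue was handled in batches that mixed the awake and isoflurane groups, per the study's methods, but which mice shared one is not given in the sources used here, so runs of mouse numbers were fitted as a block in their place. Runs 1 to 4 and 14 to 17 each hold 1 mouse of each of those 4 groups, and the other runs do not. Calls of members over all class comparisons numbered 55 for vascular classes, 35 between neurons and glia, 89 for glia classes and 170 for neuron classes. With a minimum count of 10 they were 21 for vascular, 35 for glia and 98 for neuron classes, since fewer members were tested, and without mice 1 to 4 the vascular calls were 33. Leaving out 1 mouse gave 51 to 57, 32 to 35, 84 to 93 and 161 to 169. DESeq2 gave 47, 35, 95 and 173.

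Isoflurane gave 13 calls over the 5 classes, of 12 members, with 7 when doublets were kept, 4 without mice 1 to 4, 3 without the 8 mice with Col1a2 over 30 CPM in glia, 8 without the 4 mice of doubtful label, and 6 to 13 with 1 mouse left out. Ketamine gave 19, of 16 members, with 12 under a stricter gate, 10 without mice 1 to 4, 0 with the number run fitted as a block, and 4 to 25 with 1 mouse left out. That 0 cannot tell the drug from the run, since mouse 29 is the only awake mouse in the run of the ketamine mice. The cause of these changes was not tested. With a minimum count of 10 in the vascular classes, isoflurane called 2 there in place of 1. DESeq2 gave 13 and 22. Genotype and interaction gave 0 under every setting run. The difference in vascular nuclei was -0.689 percentage points under isoflurane (-0.849 to -0.432 with 1 mouse left out) and 0.657 under ketamine (-0.167 to 1.08, reversed without mouse 28), and -0.220 under a stricter gate for ketamine. Col4a5 under ketamine in neurons turned to -0.50 with the run block, and Lamc1 in mural cells turned to -0.23 (genotype) and -0.17 (interaction) with sums of at least 5 nuclei. The mural class gave no value with at least 500 genes per nucleus, without mice 1 to 4, without mouse 3 or 4, or with the block.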
